A study of Mus musculus with 9 samples.

Results

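Prostaglandins are short-lived lipid signals that cells make from arachidonic acid and that act on receptors of nearby cells. This account follows 9 mouse genes of that system in colon organoids, from the release of arachidonic acid through prostaglandin synthesis to uptake, breakdown and reception: Pla2g4a, Ptgs1, Ptgs2, Ptges, Ptges2, Ptges3, Slco2a1, Hpgd and Ptger4. They were taken by name, as the probes whose RefSeq accession maps to these symbols, which gave 14 of the 55681 probes on the array and 9 of its 20660 named genes. Each of the 9 passed the filter on dim probes in the test over 14033 genes.

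The organoids are epithelial mini-organs grown in culture from mouse colon, and total RNA was hybridised to single-colour Cy3 arrays in 3 groups of 3: untreated organoids at 0 weeks, and organoids kept with inflammatory reagents for 12 and for 60 weeks. The labels name neither the reagents nor the mouse strain, age or genotype, and they do not say whether the replicates were separate animals or cultures, so the p-values measure only the spread between these samples, which may be technical. No untreated culture was sampled at 12 or 60 weeks, so that treatment and time in culture cannot be told apart. Levels are log2 signals relative to the 75th percentile of the array, so that a probe at the percentile itself reads 0, and they are given as mean ± SD over n = 3 arrays. Changes are log2 differences ± SE, and a gene was called when limma's adjusted p, taken over the 14033 tested genes, lay under 0.05.

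In the cell, the phospholipase encoded by Pla2g4a frees arachidonic acid from membrane lipids. The cyclooxygenases, of which the Ptgs1 product is regarded as the housekeeping form and the Ptgs2 product as the form induced by inflammation and injury, turn it into prostaglandin H2, and the synthases of the Ptges genes convert that into prostaglandin E2. The carrier encoded by Slco2a1 takes prostaglandin E2 up from outside the cell, the dehydrogenase encoded by Hpgd inactivates it, and the receptor encoded by Ptger4 answers it by raising cyclic AMP. In the colon, prostaglandin E2 is known for its part in crypt repair and in tumour growth, and Hpgd for its high level in mature surface colonocytes.

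The bases upstream of 4 of these genes are shown because the genes moved in different ways, as described below: Ptgs2 and Slco2a1 were higher at both treated times, Hpgd was higher at 12 weeks and Ptgs1 was lower at both. Each is 250 bases that end just before the start annotated in RefSeq on GRCm38.p6, written 5′ to 3′ on the strand of the gene, and capitals mark matches to any of the motifs searched. They lie at chr1:150099781-150100030 for Ptgs2, chr9:103008237-103008486 for Slco2a1, chr8:56294302-56294551 for Hpgd and chr2:36230176-36230425 for Ptgs1, all on the plus strand.
Ptgs2: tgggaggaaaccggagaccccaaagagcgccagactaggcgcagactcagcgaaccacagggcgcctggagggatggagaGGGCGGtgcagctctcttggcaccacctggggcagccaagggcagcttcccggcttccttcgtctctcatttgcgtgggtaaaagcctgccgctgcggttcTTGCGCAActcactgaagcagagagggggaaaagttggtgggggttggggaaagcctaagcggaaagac
Ptgs2 after the start: actaCGTCACGTGgagt
Slco2a1: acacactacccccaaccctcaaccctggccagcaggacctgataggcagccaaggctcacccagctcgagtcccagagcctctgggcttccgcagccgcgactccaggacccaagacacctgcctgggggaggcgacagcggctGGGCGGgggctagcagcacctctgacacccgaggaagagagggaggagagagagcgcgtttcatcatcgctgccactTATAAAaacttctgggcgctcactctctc
Hpgd: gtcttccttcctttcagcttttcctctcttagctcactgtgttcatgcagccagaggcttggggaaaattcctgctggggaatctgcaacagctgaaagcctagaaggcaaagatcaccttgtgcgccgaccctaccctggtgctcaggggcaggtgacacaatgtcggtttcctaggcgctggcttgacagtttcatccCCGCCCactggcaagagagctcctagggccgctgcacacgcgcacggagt
Ptgs1: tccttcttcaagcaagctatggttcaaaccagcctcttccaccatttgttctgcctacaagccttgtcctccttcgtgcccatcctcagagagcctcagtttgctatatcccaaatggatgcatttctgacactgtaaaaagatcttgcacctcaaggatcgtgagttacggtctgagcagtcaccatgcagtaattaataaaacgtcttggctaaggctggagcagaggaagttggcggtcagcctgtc
The short piece of Ptgs2 is chr1:150100040-150100056 on the plus strand.

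The motifs were searched on both strands in windows of 300 bases, 250 before and 50 after the annotated start, in which the first base at the start has position 0. The Ptgs2 window held the C/EBP palindrome TTGCGCAA at -69, a sequence that 0.183% of the 32851 mouse promoter windows hold (60 windows). At 13 it held CGTCA, the reverse complement of the cyclic AMP response half-site TGACG, which overlaps the E-box CACGTG at 16; 20.8% of all windows hold the half-site and 7.15% the E-box. A GC box, GGGCGG, lay at -170. The Slco2a1 window held TATAAA at -29 (13.6% of windows hold it) and a GC box at -106 (35.7%). In Hpgd the reverse complement of the GC box lay at -50, and TATAAA at 4. None of the 7 motifs searched lay in the Ptgs1 window. The NF-kB consensus was searched as GGGRNNYYCC, with R for A or G, Y for C or T and N for any base. Held by 8.46% of windows, it was found in none of these 4 windows. TGANTCA, the AP-1 motif held by 7.81%, was found in none either. A match is a description of the letters, and a missing match says nothing about the factor.

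On each array 49.2% to 52.7% of probes passed the scanner's call for signal well above background, and 0 spots were saturated. The arrays of 0 weeks correlated across probes at 0.994 to 0.996, those of 60 weeks at 0.990 to 0.994, and at 12 weeks replicates 1 and 3 at 0.992. Replicate 2 of 12 weeks stood apart, at 0.978 and 0.977 with the other two. All 8 epithelial markers listed, among them Epcam, Cdh1 and Krt8, were above background on every array. Markers of other cell types were in part too dim to be tested, among them Ptprc and Lyz2 of leukocytes, Col3a1, Pdgfra and Dcn of fibroblasts, Cdh5 of endothelium and Cpa3 of mast cells, and in part measured: 5 of 8 listed for leukocytes, 3 of 8 for fibroblasts, 2 of 4 for endothelium and 1 of 5 for mast cells were tested. Of these, Csf1r, Itgam, Cd14, Cd3e, Col1a2, Kdr, Pecam1 and Tpsb2 were above background on all 9 arrays. The summed signal of the leukocyte markers was 31.2 to 37.4 times the 75th percentile at 0 weeks. It was 50.4 to 68.2 at 12 weeks and 51.1 to 59.2 at 60 weeks. Itgam and Cd14, the brightest of the 5 on every array, make up most of this sum, so it says little of the others. Cd14 was called higher at both treated times (0.78 ± 0.13 and 0.74 ± 0.13, the second not with the row as a block). Csf1r was called lower at 60 weeks than at 0 weeks (-0.37 ± 0.09) and than at 12 weeks (-0.62 ± 0.09). These calls ended in 7 and 1 of 24 alternatives. The probes of Csf1r disagreed at 12 against 0 weeks. The brightest, which gave these calls, read 0.25 there and was not called. The other probes read 1.55 (adjusted p = 0.00841 over 29894 probes) and -0.12. At 60 against 12 weeks those other probes read -1.68 (called) and -0.11 (not called), and at 60 against 0 weeks -0.13 and -0.23, neither called. Itgam, Cd3e and Adgre1 were called in no comparison. At 12 against 0 weeks the brightest Itgam probe read 0.69 and its other probes -0.41 and -0.20. Vim was above background only at 12 weeks, at least 4.73-fold above 0 weeks. Col1a1 went the other way. It was above background on every array of 0 and 60 weeks and on 0 of 3 at 12 weeks, at least 2.88-fold below 0 weeks there. Col1a2 was called in no comparison. The fibroblast markers summed to 0.172 to 0.245 at 0 weeks, 0.250 to 0.370 at 12 weeks and 0.203 to 0.209 at 60 weeks. The part of these cell types in the levels below was not tested. In a culture with more than one cell type, fewer cells of a type and less RNA per cell cannot be told apart, which holds for each level below.

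At 12 weeks, 7 of the 9 prostaglandin genes differed from 0 weeks, in opposite directions. Ptgs2, Slco2a1, Hpgd and Ptges2 were higher, and Ptgs1, Ptges and Ptges3 were lower. Of all tested genes, 41.8% were called in this comparison, 19.1% higher and 22.7% lower. The median change of the 9 was 0.32, against -0.06 over all tested genes. The groups did not overlap for 7 of the 9, against 54.6% of all tested genes. The count fell to 4 without replicate 2 of 0 weeks, without replicate 1 of 12 weeks or without replicate 3 of 12 weeks.

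At 60 weeks, 4 of the 9 differed from the same 0 weeks arrays, against 32.8% of all tested genes (16.7% higher and 16.1% lower). Ptgs2 and Slco2a1 were higher, Ptgs1 and Ptger4 were lower, and the median change was -0.01 (-0.04 over all tested genes). The groups did not overlap for 7 of the 9, against 56.5% of all tested genes. The count fell to 2, the 2 rises, without replicate 1 or replicate 2 of either group.

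Between 12 and 60 weeks, 5 of the 9 differed, against 38.3% of all tested genes (20.7% higher and 17.6% lower at 60 weeks). Ptgs2, Ptges2 and Hpgd were lower at 60 than at 12 weeks, and Ptges and Ptges3 were higher. The median change was 0.02, the same as over all tested genes, and the groups did not overlap for 4 of the 9, against 47.3% of all tested genes. Each pair of comparisons shares 3 arrays, so a gene's 3 changes are not independent measurements.

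**Figure D1:**
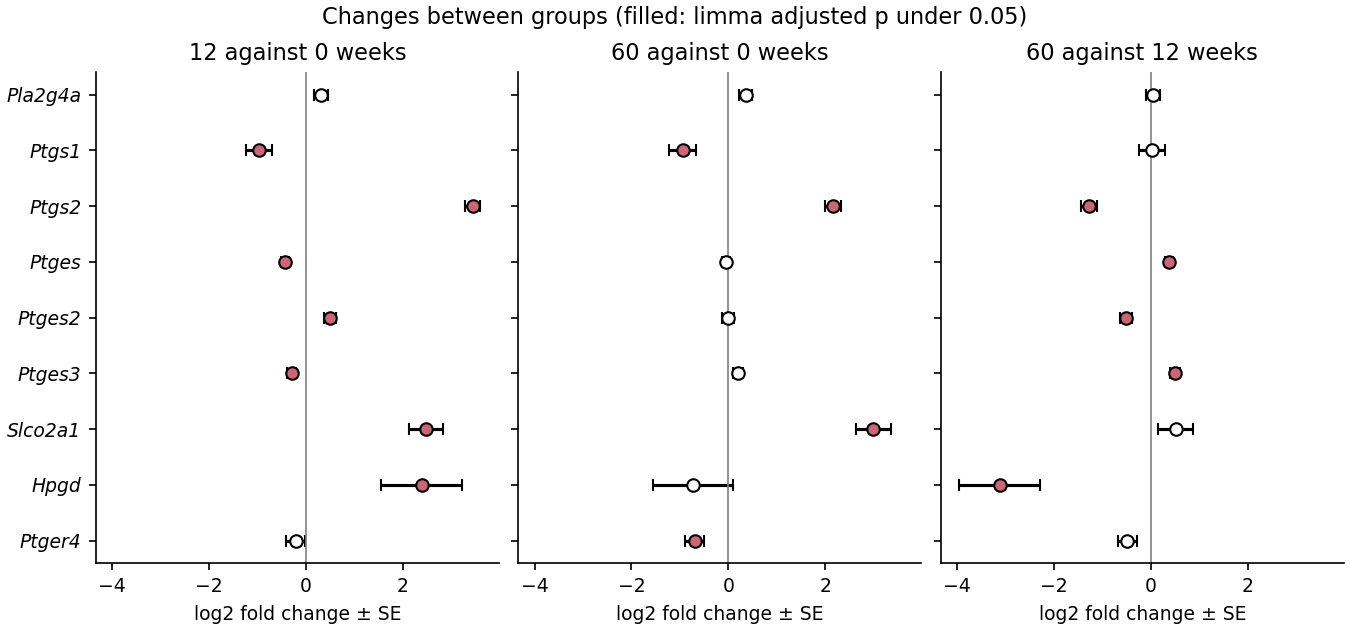
Log2 fold change ± SE of each of the 9 genes (rows) in the 3 comparisons (panels), with filled points where limma's adjusted p lay under 0.05. Ptgs2 and Slco2a1 lie to the right of 0 in both comparisons with 0 weeks, and Hpgd lies to the right at 12 against 0 weeks and to the left at 60 against 12 weeks.

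Pla2g4a encodes the cytosolic phospholipase A2 that supplies the cyclooxygenases with arachidonic acid. Its level was 3.13, 3.38 and 3.31 in the untreated organoids, 3.44, 3.90 and 3.44 after 12 weeks and 3.58, 3.63 and 3.68 after 60 weeks. Every treated array lay above the 3 untreated ones, and replicate 2 of 12 weeks was the highest of the 9. The differences from 0 weeks did not pass the threshold, at 0.32 ± 0.14 for 12 weeks (adjusted p = 0.105) and 0.36 ± 0.14 for 60 weeks (adjusted p = 0.0888). Without replicate 2 of 12 weeks, which is in neither group of that comparison, the difference at 60 weeks stayed at 0.36 and its adjusted p was 0.0144. In 21 of 24 alternatives the difference at 60 weeks was not called. Over all 24 it ranged from 0.099 to 0.41, with an adjusted p of up to 0.850.

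Ptgs2, the inducible cyclooxygenase, changed most clearly among the synthesis genes. It is printed in 10 spots of 1 probe on each array, and the log2 SD between those spots was 0.039 to 0.094, smaller than the SD between arrays. The level was 0.31, 0.30 and 0.07 in the untreated organoids, 3.96, 3.46 and 3.59 after 12 weeks and 2.61, 2.27 and 2.28 after 60 weeks. The 3 groups were fully separate, with the 60 weeks arrays between the others. The mean rose from 0.23 ± 0.14 to 3.67 ± 0.26 at 12 weeks, a change of 3.44 ± 0.16 or 10.9-fold (adjusted p = 2.71e-06). At 60 weeks it was 2.39 ± 0.20, still 2.16 ± 0.16 or 4.46-fold above 0 weeks (adjusted p = 3.38e-05) and 2.43-fold below 12 weeks (-1.28 ± 0.16, adjusted p = 0.000719). All 3 calls held in each of the 23 alternatives tried for this gene, in which the rise at 12 weeks ranged from 3.29 to 3.73 and that at 60 weeks from 2.02 to 2.66. Unlike several of the genes below, Ptgs2 in replicate 2 of 12 weeks, 3.23 above the mean of 0 weeks, lay near replicates 1 and 3, at 3.73 and 3.36.

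Ptgs1, the constitutive cyclooxygenase, was lower after treatment. Its level was 6.33, 6.04 and 5.88 in the untreated organoids, 4.84, 5.80 and 4.74 after 12 weeks and 5.08, 5.05 and 5.30 after 60 weeks. All 6 treated arrays lay below the 3 untreated ones, but replicate 2 of 12 weeks only just. The mean went from 6.09 ± 0.23 to 5.12 ± 0.59 at 12 weeks, 1.95-fold lower (-0.96 ± 0.27, adjusted p = 0.0215), and to 5.14 ± 0.13 at 60 weeks, 1.93-fold lower (-0.95 ± 0.27, adjusted p = 0.0276). Between 12 and 60 weeks it differed by 0.02 ± 0.27 (adjusted p = 0.970). The call at 12 weeks ended without replicate 1 or replicate 2 of 0 weeks (adjusted p = 0.0720 and 0.0543) and without replicate 1 or replicate 3 of 12 weeks (adjusted p = 0.0707 and 0.0684). That at 60 weeks ended without replicates 1 or 2 of 0 weeks (adjusted p = 0.0916 and 0.0681) and without replicates 1 or 2 of 60 weeks (adjusted p = 0.0788 and 0.0777). In the gut Ptgs1 is also known as a gene of tuft cells, and of 11 tuft cell markers listed, prostaglandin genes left out, 4 could be tested. Trpm5, Pou2f3, Avil, Il25 and Gnat3 were among those too dim on these arrays. The summed signal of the 4, in units of the 75th percentile of the array, was 1.47 to 1.80 at 0 weeks. It was 1.02 to 1.75 at 12 weeks and 1.17 to 1.56 at 60 weeks. Ltc4s, the brightest of the 4 on every array, makes up most of this sum, and it was called in no comparison (-0.20 and -0.08 against 0 weeks). Of the 4, 3 were lower at 12 weeks and 2 at 60 weeks, with changes of -0.97 and -1.05 for Dclk1. Il17rb was not above background at either treated time, at least 2.17-fold and 2.07-fold below 0 weeks. Gfi1b was lower at 12 weeks (-0.71) but not at 60 weeks (0.12), and it was called higher at 60 than at 12 weeks (0.84). Of all tested genes, 22.7% were called lower at 12 weeks and 16.1% at 60 weeks. The part of tuft cells in the level of Ptgs1 was not tested.

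**Figure D2:**
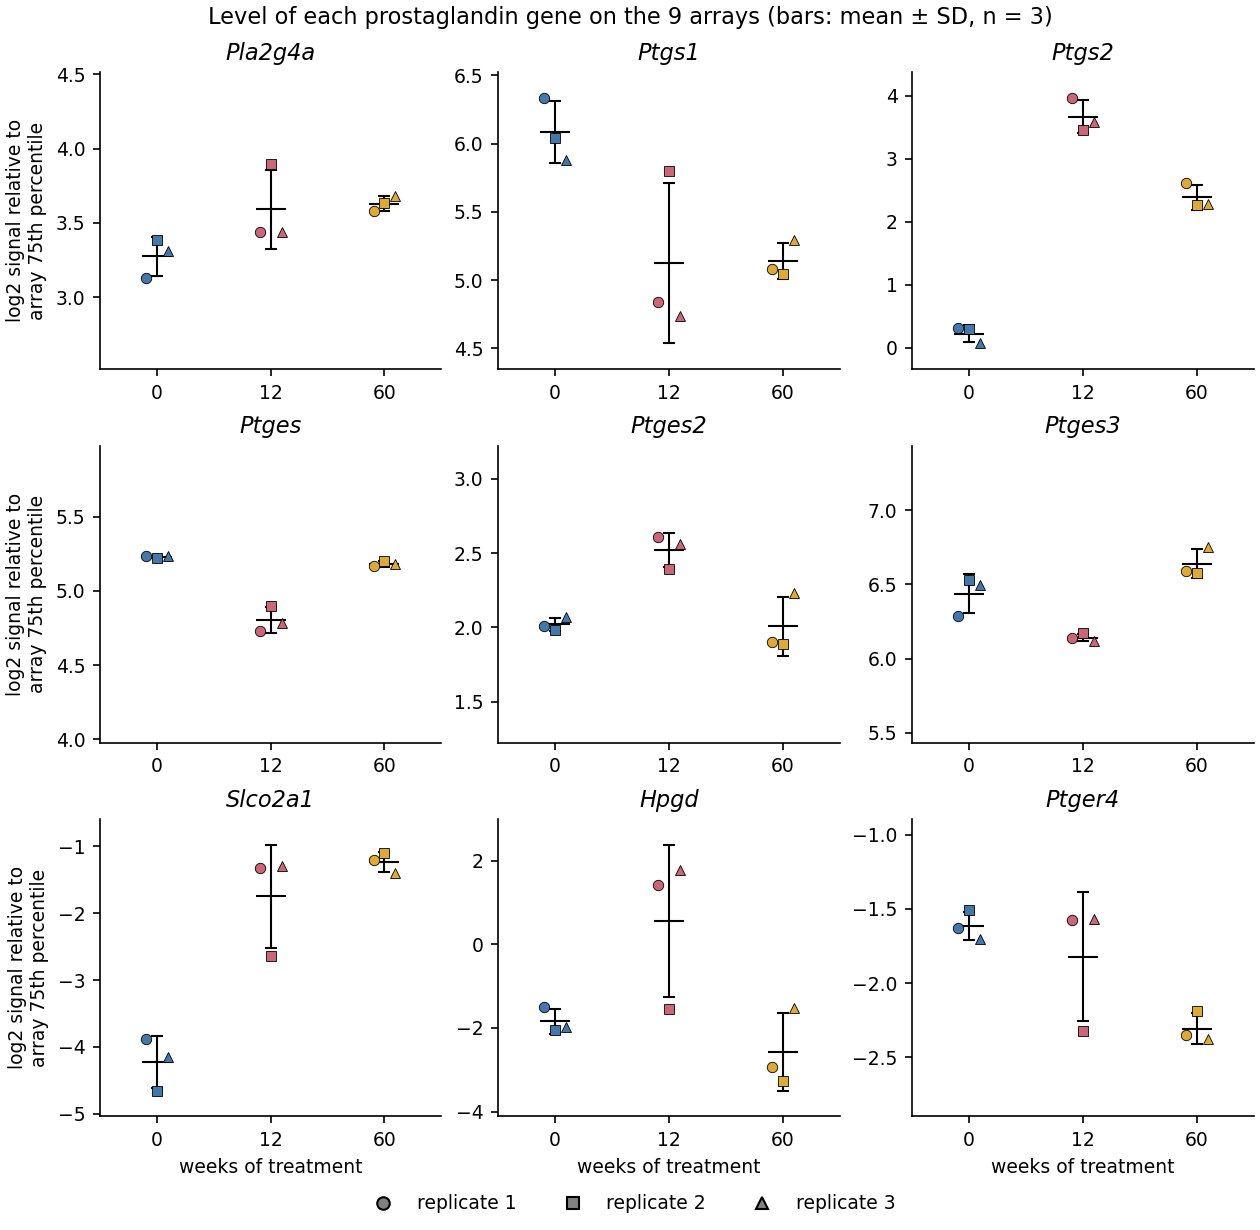
Level of each of the 9 genes (log2 signal relative to the 75th percentile of the array) against weeks of treatment, with a symbol for each replicate and bars for mean ± SD; the level axis has its own range in each panel. The 3 groups separate fully for Ptgs2, while replicate 2 of 12 weeks (square) lies apart from replicates 1 and 3 for Pla2g4a, Ptgs1, Slco2a1, Hpgd and Ptger4.

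The 3 prostaglandin E synthases changed in different directions at 12 weeks, Ptges2 upward like Ptgs2 and Ptges and Ptges3 downward. Ptges encodes the microsomal synthase that is known to be induced together with Ptgs2 in inflamed tissue, and here it was lower at 12 weeks. Its brighter probe read 5.24, 5.22 and 5.23 in the untreated organoids, 4.73, 4.90 and 4.78 after 12 weeks and 5.16, 5.20 and 5.18 after 60 weeks. The 12 weeks arrays lay below the 6 others. It was 1.34-fold lower at 12 weeks (-0.43 ± 0.08, adjusted p = 0.00417), and the level at 60 weeks was 0.38 ± 0.08 above that at 12 weeks (adjusted p = 0.00860). From 0 to 60 weeks the difference was -0.05 ± 0.08 (adjusted p = 0.674). The dimmer probe of the gene moved the same ways by larger amounts, from 1.26 ± 0.11 to -0.10 ± 0.57 at 12 weeks and 1.38 ± 0.08 at 60 weeks. Its change at 12 weeks was -1.36 ± 0.25 (adjusted p = 0.00451 over 29894 probes), so the size of the change depends on the probe.

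Ptges2 encodes a second membrane-associated synthase, regarded as constitutive. Its level was 2.01, 1.98 and 2.07 in the untreated organoids, 2.61, 2.39 and 2.56 after 12 weeks and 1.90, 1.89 and 2.23 after 60 weeks. The 12 weeks arrays lay above all 6 others, and the 0 and 60 weeks arrays overlapped. It rose by 0.50 ± 0.12 or 1.42-fold at 12 weeks (adjusted p = 0.0107) and was lower at 60 than at 12 weeks (-0.51 ± 0.12, adjusted p = 0.0110). Both calls held in every alternative run.

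Ptges3 encodes the cytosolic synthase, which is also a co-chaperone of Hsp90. Its brightest probe read 6.29, 6.53 and 6.50 in the untreated organoids, 6.14, 6.17 and 6.12 after 12 weeks and 6.59, 6.57 and 6.75 after 60 weeks. The groups did not overlap in any comparison, although the gaps were small. It was lower at 12 than at 0 weeks (-0.30 ± 0.10, adjusted p = 0.0425) and 0.50 ± 0.10 higher at 60 than at 12 weeks (adjusted p = 0.00607). From 0 to 60 weeks it differed by 0.20 ± 0.10 (adjusted p = 0.157). All 4 of its probes were higher at 60 than at 12 weeks, by 0.50 to 0.82, and each was called over the 29894 probes. At 12 against 0 weeks the 4 probes read -0.23 to -0.42, and 2 of them were called. The tested genes of chromosome 10, where Ptges3 lies, had a median change of 0.34 at 60 against 12 weeks (652 genes), and the change of Ptges3 beyond that median was 0.15. The call at 12 against 0 weeks ended in 14 of 24 alternatives, with an adjusted p of up to 0.296, among them without replicates 2 or 3 of 0 weeks (0.145 and 0.126), without replicates 1 or 3 of 12 weeks (0.0932 and 0.106) and without replicates 1 or 2 of 60 weeks (0.0667 and 0.0515).

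**Figure D3:**
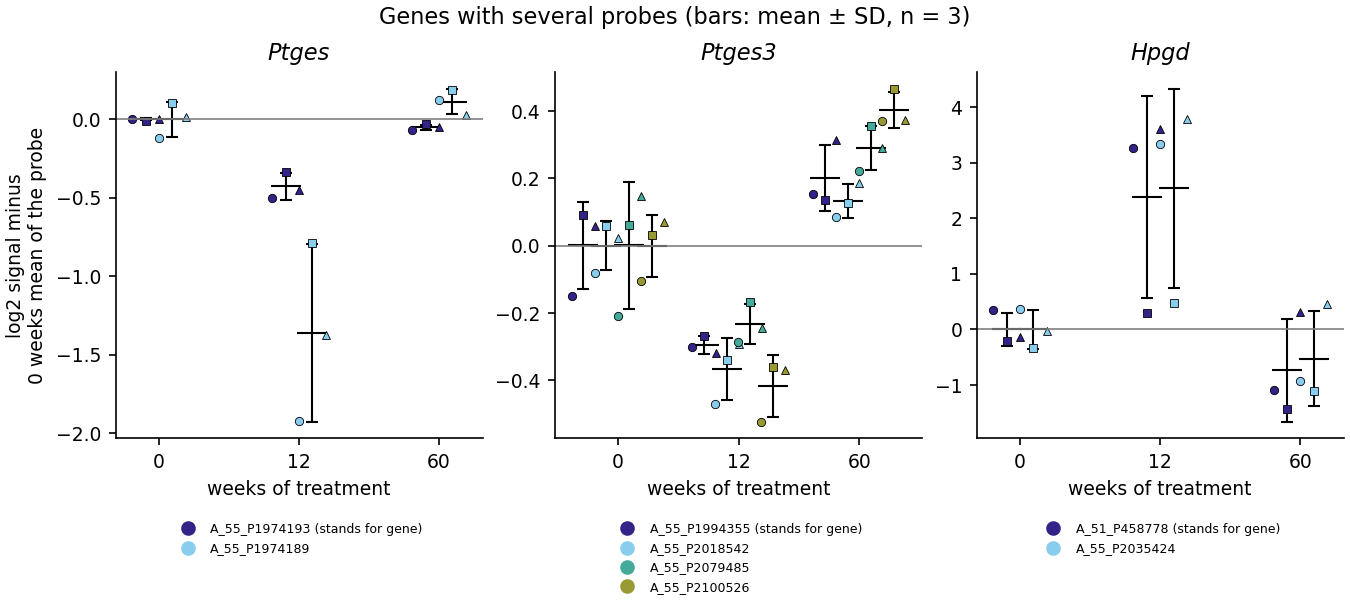
Log2 signal of each probe of Ptges, Ptges3 and Hpgd minus that probe's mean at 0 weeks, against weeks of treatment, with the replicate symbols circle, square and triangle for 1, 2 and 3 and bars for mean ± SD. Both probes of Ptges lie below 0 at 12 weeks, at -0.43 and -1.36, and the 2 probes of Hpgd lie close together.

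Slco2a1, the prostaglandin uptake carrier, was the second gene that stood high at both treated times. Its level was -3.87, -4.65 and -4.15 in the untreated organoids, -1.32, -2.63 and -1.29 after 12 weeks and -1.20, -1.10 and -1.40 after 60 weeks. The untreated arrays lay below all 6 treated ones, and replicate 2 of 12 weeks was the lowest of the treated arrays. The mean rose from -4.23 ± 0.39 to -1.75 ± 0.77 at 12 weeks, a change of 2.48 ± 0.36 or 5.58-fold (adjusted p = 0.00107), and to -1.23 ± 0.15 at 60 weeks, a change of 2.99 ± 0.36 or 7.96-fold (adjusted p = 0.000480). From 12 to 60 weeks it differed by 0.51 ± 0.36 (adjusted p = 0.292). The probe was dim at 0 weeks, well above background on 2 of 3 arrays, and the size of the rise depended on the background correction: with normexp the changes were 1.20 and 1.53. Both calls held in every alternative run.

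Hpgd, the enzyme that starts prostaglandin breakdown, stood high at 12 weeks on 2 of 3 arrays. Its level was -1.50, -2.05 and -1.97 in the untreated organoids, 1.42, -1.54 and 1.77 after 12 weeks and -2.92, -3.27 and -1.52 after 60 weeks. Replicate 2 of 12 weeks and replicate 3 of 60 weeks both lay inside the range of the untreated arrays, so the groups overlapped in every comparison. The mean was -1.84 ± 0.30 at 0 weeks, 0.55 ± 1.82 at 12 weeks and -2.57 ± 0.93 at 60 weeks. The rise at 12 weeks was 2.39 ± 0.83 or 5.24-fold (adjusted p = 0.0480), and the level at 60 weeks was 8.71-fold below that at 12 weeks (-3.12 ± 0.83, adjusted p = 0.0193). At 60 against 0 weeks the difference was -0.73 ± 0.83 (adjusted p = 0.533). The other probe of the gene read alike, 2.54 ± 0.81 at 12 against 0 weeks (adjusted p = 0.0422 over 29894 probes).

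The rise of Hpgd at 12 weeks rests on which arrays are kept. Without replicate 2 of 12 weeks it was 3.44 (adjusted p = 0.000848). It was no longer called without replicate 1, 2 or 3 of 0 weeks (adjusted p = 0.0832, 0.119 and 0.114), replicate 1 or 3 of 12 weeks (changes of 1.96 and 1.78, adjusted p = 0.143 for each) or replicate 1 or 2 of 60 weeks (adjusted p = 0.0663 and 0.0585). The fall from 12 to 60 weeks was not called without replicate 1 or 3 of 12 weeks (adjusted p = 0.0641 and 0.0637) or replicate 1 or 2 of 60 weeks (adjusted p = 0.0615 and 0.0663).

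Markers of mature colonocytes, the surface cells in which Hpgd is known to be high, varied over the same arrays. Of 7 listed, 6 were tested, and 4 of them were higher at 12 than at 0 weeks, 0 lower. Of all tested genes, 19.1% were called higher in this comparison and 22.7% lower. Against the mean of 0 weeks, the 3 replicates of 12 weeks read 3.26, 0.30 and 3.61 for Hpgd, 2.53, 0.41 and 3.00 for the keratin gene Krt20, 5.06, 1.01 and 6.03 for the carbonic anhydrase gene Car1 and 8.21, 2.82 and 7.78 for the guanylin gene Guca2a. Replicate 2 was the lowest of the 3 in these genes and in Ceacam20 (2.62, 1.85 and 2.86), and the highest in the other tested markers, Car4 (-0.37, 0.13 and -0.16) and Aqp8 (-0.03, 0.84 and -0.26), neither of which was called. The calls of Krt20 and Car1 ended without replicate 1 or 3 of 12 weeks or replicate 3 of 0 weeks, and that of Krt20 also without replicate 1 or 2 of 0 weeks (adjusted p up to 0.0761 for Krt20 and 0.0824 for Car1). The summed signal of the 6 markers was 15.4 to 20.8 times the 75th percentile at 0 weeks, 25.8 to 234 at 12 weeks and 16.4 to 17.5 at 60 weeks. Their part in the level of Hpgd was not tested. Slco2a1 had 2.91, 1.59 and 2.94 in the same replicates and Ptgs1 -1.25, -0.28 and -1.35, so in both genes too replicate 2 lay nearest to the untreated mean.

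**Figure D4:**
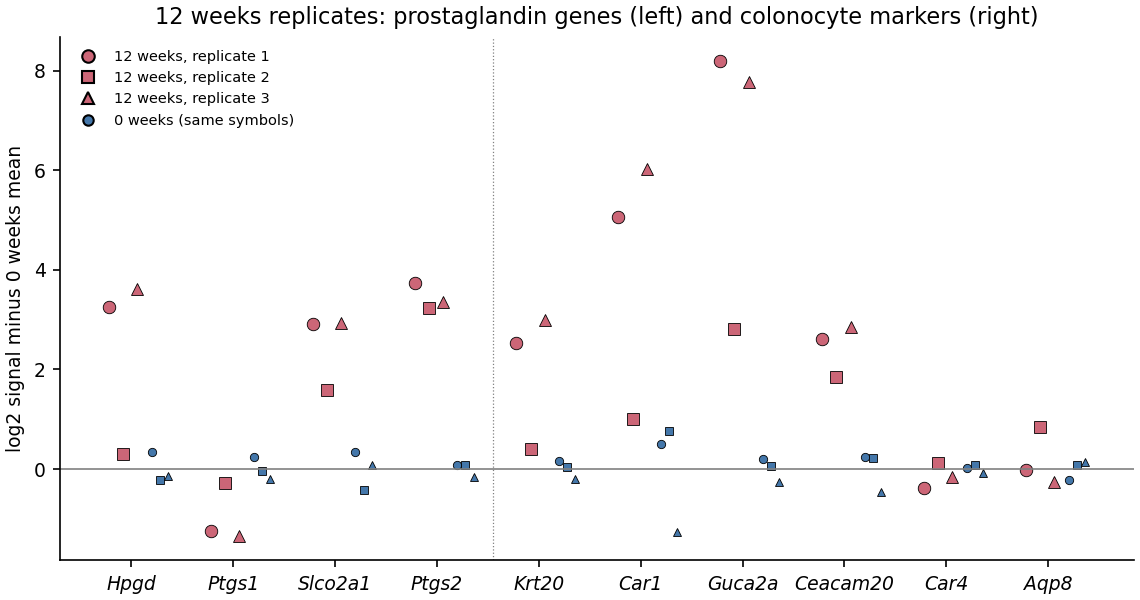
Log2 signal of each 12 weeks replicate minus the mean of 0 weeks, for 4 prostaglandin genes (left) and the 6 tested colonocyte markers (right), with the 0 weeks replicates as small symbols. Replicate 2 (square) lies well apart from replicates 1 and 3 toward 0 for Hpgd, Krt20, Car1 and Guca2a, lies near them for Ptgs2, and lies above them for Car4 and Aqp8.

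Ptger4, the prostaglandin E2 receptor that raises cyclic AMP, was lower at 60 weeks. Its level was -1.63, -1.51 and -1.70 in the untreated organoids, -1.57, -2.32 and -1.57 after 12 weeks and -2.35, -2.19 and -2.38 after 60 weeks. Replicates 1 and 3 of 12 weeks lay with the untreated arrays, and replicate 2 lay with those of 60 weeks. At 60 against 0 weeks it was 1.61-fold lower (-0.69 ± 0.20, adjusted p = 0.0281), with no overlap. The difference at 12 weeks was -0.21 ± 0.20 (adjusted p = 0.428), and it was 0.045 without replicate 2. At 60 against 12 weeks it was -0.49 ± 0.20 (adjusted p = 0.0841), and -0.74 without that replicate (adjusted p = 0.000755). The call at 60 against 0 weeks ended when any array of 0 weeks was left out (adjusted p = 0.0704, 0.0902 and 0.0608 for replicates 1 to 3) or any of 60 weeks (adjusted p = 0.0811, 0.0502 and 0.0741).

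The place of the arrays on the slides bears on these comparisons. The first slide holds 8 arrays in 2 rows, the 0 weeks arrays with replicate 1 of 12 weeks in row 1 and the rest in row 2, and replicate 3 of 60 weeks is alone on the second slide. Within row 1, replicate 1 of 12 weeks differed from the 0 weeks mean by 3.73 for Ptgs2, 2.91 for Slco2a1, 3.26 for Hpgd, 0.59 for Ptges2, -1.25 for Ptgs1, -0.50 for Ptges and -0.30 for Ptges3, each in the direction of the pooled change. Within row 2, 60 weeks differed from 12 weeks by -1.08 for Ptgs2, -0.58 for Ptges2, -3.22 for Hpgd, 0.34 for Ptges and 0.44 for Ptges3, again in the pooled direction. These arrays are part of the pooled changes, and where the groups did not overlap the direction was fixed in advance. The shared direction is therefore no test of the row. No row holds both 0 and 60 weeks. With the row as a block, the falls at 60 against 0 weeks were not called for Ptgs1 (-1.46, adjusted p = 0.137) or Ptger4 (-0.29, adjusted p = 0.667). At 12 against 0 weeks Ptgs1, Ptges3 and Hpgd were not called (adjusted p = 0.0561, 0.146 and 0.0685), nor at 60 against 12 weeks Ptges (0.0562) and Hpgd (0.0560).

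The other genes that make, change, carry or sense prostaglandins and leukotrienes were taken from a list of 56 symbols. Of these symbols, 52 are named on the array and 28 were bright enough to test. At 12 against 0 weeks 5 of the 28 were higher and 8 lower, with a median of 0.02, where 41.8% of all tested genes were called. At 60 against 0 weeks 6 were higher and 9 lower (median -0.05; 32.8% of all tested genes called), and at 60 against 12 weeks 3 were higher and 9 lower (median -0.04; 38.3%). Without replicate 2 of 12 weeks, 10 were higher and 9 lower in the last of these comparisons. The 9 counted as lower at 60 against 0 weeks include Ltb4r1, which was above background on no array of either group. That call is no measured fall, and it ended in 12 of 21 alternatives.

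All 4 tested synthases of prostaglandins D2 and F2 were called in each comparison. The shares of all tested genes called were 41.8%, 32.8% and 38.3% at 12 against 0, 60 against 0 and 60 against 12 weeks. Ptgds, the lipocalin-type prostaglandin D synthase, fell in steps, from 1.19 ± 0.16 at 0 weeks to 0.01 ± 0.06 at 12 weeks and -2.29 ± 0.13 at 60 weeks, which is 11.1-fold over the whole span (-3.48 ± 0.11, adjusted p = 4.06e-07). Prxl2b, a prostamide and prostaglandin F synthase, rose from 0.79 ± 0.13 to 3.45 ± 0.15 at 12 weeks and stood at 2.81 ± 0.25 at 60 weeks, which is 2.67 ± 0.15 and 2.03 ± 0.15 above 0 weeks. Akr1b3, an aldose reductase with prostaglandin F synthase activity, was 1.20 ± 0.11 higher at 12 weeks (adjusted p = 0.000105) and 0.37 ± 0.11 higher at 60 weeks, where the call ended in 11 of 24 alternatives, with 0.157 the highest adjusted p. These include the fits without replicates 1 or 2 of 0 weeks, replicate 3 of 12 weeks or any 1 array of 60 weeks. Akr1c18, a steroid dehydrogenase of the same enzyme family, had the largest fall of the tested genes on this list at 60 weeks, from 4.62 ± 0.30 to -3.39 ± 0.99 (-8.01 ± 0.99, adjusted p = 0.000570; 0.0655 with the row as a block). At 12 weeks it stood at 1.20 ± 2.23, and that call ended when any 1 of the 0 weeks arrays was left out (highest adjusted p over the alternatives 0.254). Hpgds, Ptgis and Tbxas1, the synthases of prostaglandin D2 in blood cells, of prostacyclin and of thromboxane, were too dim to test.

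Of the 5 tested reductases that act on prostaglandins and their keto products, 3 were lower at both treated times. Of all tested genes, 22.7% were called lower at 12 weeks and 16.1% at 60 weeks. Cbr1, which can reduce prostaglandin E2, stood at 7.22 ± 0.16, 4.85 ± 0.34 and 4.55 ± 0.09 at 0, 12 and 60 weeks, with changes of -2.37 ± 0.17 (adjusted p = 2.54e-05) and -2.67 ± 0.17 against 0 weeks. Its paralogue Cbr3 changed by -2.36 ± 0.28 and -1.91 ± 0.28. Ptgr1, which reduces the product of Hpgd further and also inactivates leukotriene B4, changed by -1.66 ± 0.20 and -1.54 ± 0.20. These 6 calls held in every alternative run for them. Ptgr2 and Zadh2 passed the test in no comparison.

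Abcc4, which carries prostaglandins out of the cell, was 0.67 ± 0.18 higher at 12 weeks (adjusted p = 0.0199) and 0.66 ± 0.18 higher at 60 weeks (adjusted p = 0.0253), but the calls ended in 4 and 7 of 24 alternatives, up to an adjusted p of 0.0970 and 0.354. Among these, the first call ended without replicates 2 or 3 of 0 weeks or replicate 1 of 12 weeks, and the second without replicates 2 or 3 of 0 weeks or replicates 1 or 3 of 60 weeks. Among 7 tested phospholipases A2 besides Pla2g4a, 1 was called in each comparison. That stands against 41.8%, 32.8% and 38.3% of all tested genes at 12 against 0, 60 against 0 and 60 against 12 weeks. Pla2g12a, a secreted form, fell by 0.55 ± 0.11 at 12 weeks (adjusted p = 0.00487) and Pla2g2e, another, rose by 1.06 ± 0.25 at 60 weeks (adjusted p = 0.0140; 0.34 to 1.20 over the alternatives, and not called with normexp, with the row as a block or without replicate 1 of 60 weeks). Pla2g12b was not above background at 60 weeks and was at least 1.13-fold lower there than at 12 weeks, where 2 of 3 arrays measured it. That call ended in 6 of 21 alternatives, among them normexp, the slide or the row as a block and the fits without replicate 2 or 3 of 60 weeks (adjusted p up to 0.546). Of the 8 other prostanoid receptors on the list, 7 were too dim, among them Ptger2 and Ptger3, and Ptger1 was not called in any comparison.

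The leukotriene branch of arachidonic acid metabolism moved in mixed directions. Alox5, its first lipoxygenase, was not above background on any array of 0 or 60 weeks and was at least 9.06-fold higher at 12 than at 0 weeks (adjusted p = 4.02e-05) and at least 8.93-fold lower at 60 than at 12 weeks. Alox5ap, which presents arachidonic acid to it, went the other way, from 1.18 ± 0.04 to -3.42 ± 0.22 at 12 weeks and -1.37 ± 0.21 at 60 weeks, with changes of -4.61 ± 0.14 (adjusted p = 3.56e-07) and -2.55 ± 0.14 against 0 weeks. Mgst2, which can conjugate leukotriene A4 with glutathione, stood at 5.92 ± 0.25 and 5.64 ± 0.06 at 0 and 12 weeks and at 2.78 ± 0.03 at 60 weeks, a change of -3.14 ± 0.13 from 0 weeks (adjusted p = 1.55e-06). Lta4h, the leukotriene A4 hydrolase, was 0.60 ± 0.12 higher at 60 than at 12 weeks (adjusted p = 0.00568), and the call of its change at 12 weeks, -0.34 ± 0.12, ended in 11 of 24 alternatives, with 0.135 the highest adjusted p. These include the fits that left out any 1 array of 0 or 12 weeks, or replicate 1 of 60 weeks. Aloxe3, an epidermal-type lipoxygenase, rose by 1.74 ± 0.26 at 12 weeks and 1.57 ± 0.26 at 60 weeks, with values from 0.52 to 2.23 over the alternatives at 12 weeks. The 2 probes of its relative Alox12b disagreed at 60 weeks, at 1.95 and -0.02. Of the leukotriene receptors, Cysltr1 was at least 1.95-fold lower at 60 than at 0 weeks and at least 2.17-fold lower than at 12 weeks, and Ltb4r1 was at least 1.46-fold lower at 60 than at 12 weeks. The first of these calls ended with the row as a block (adjusted p = 0.147) and that of Ltb4r1 with normexp (adjusted p = 0.563).

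**Figure D5:**
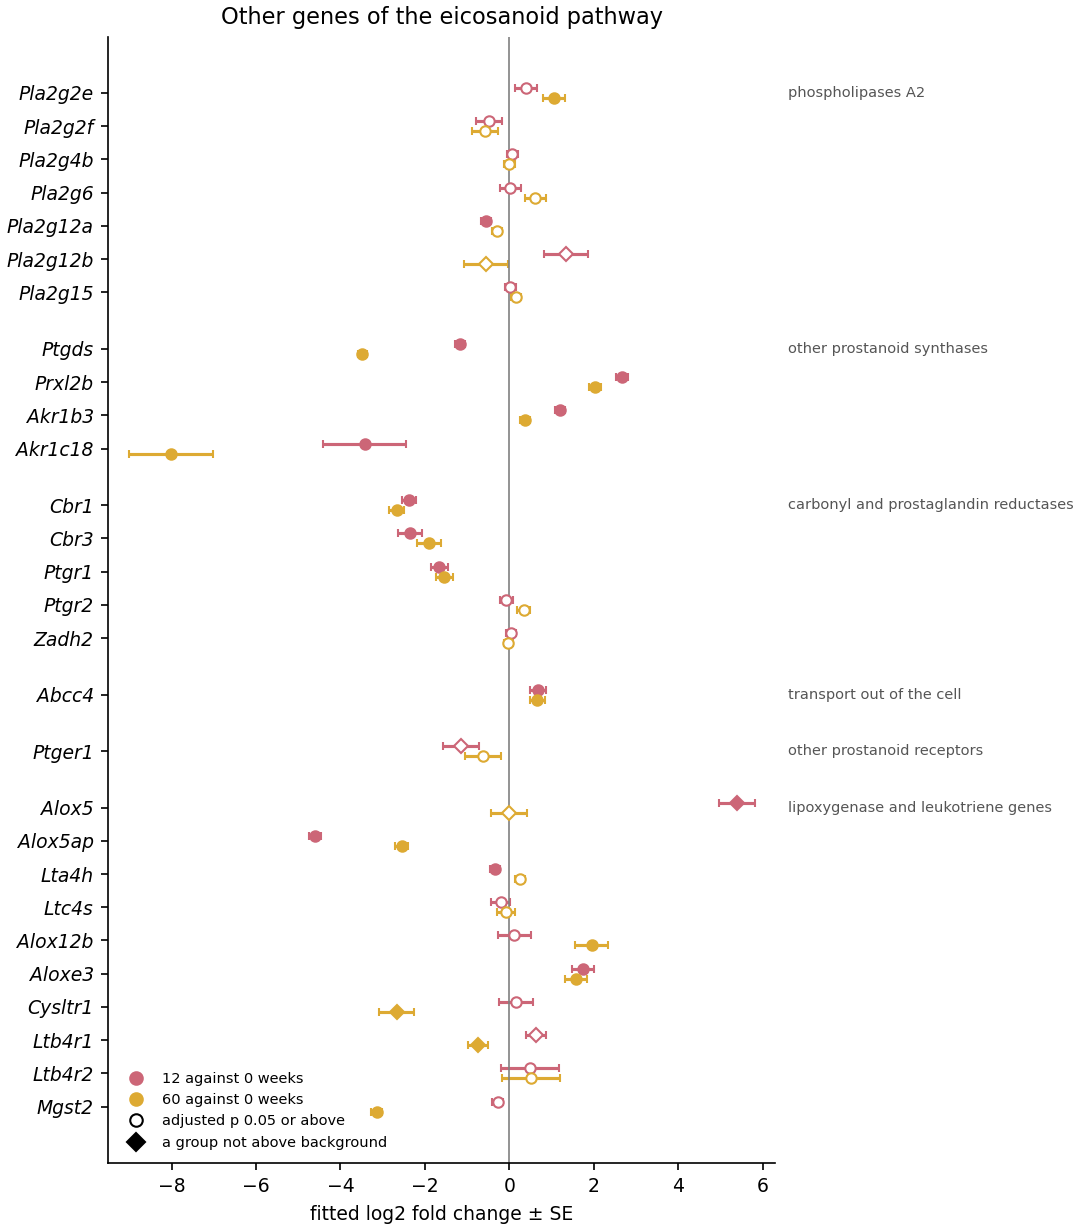
Fitted log2 fold change ± SE of the 28 other tested genes of the pathway at 12 (red) and 60 (yellow) against 0 weeks, grouped by role, with open symbols where the adjusted p was 0.05 or above and diamonds where a group was not above background. A diamond's fitted value is no measured fold. Cbr1, Cbr3, Ptgr1 and Alox5ap lie left of 0 at both times and Prxl2b right of it.

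The genes closest to Ptgs2 and to Hpgd in pattern were ranked over the 9 arrays by the root mean square difference of log2 values after each gene was centred on its 0 weeks mean, among 8320 genes called in at least 1 comparison. Closest to Ptgs2 were Dpp7 (difference 0.197), Lancl3 (0.238), Dpysl3 (0.256), Rarb (0.336) and Ttc7b (0.340). Rarb was above background on 0 of 3 arrays at 0 weeks and on 1 at 60 weeks, so its values there are only bounds and its distance and rank are not settled. Dpp7, a lysosomal peptidase gene, rose by 3.25 at 12 weeks and was 2.27 above 0 weeks at 60 weeks, against 3.44 and 2.16 for Ptgs2. Closest to Hpgd were Apobr (0.447), Mettl7b (0.513), Nr1h4 (0.546), Adamts15 (0.550) and Tnfsf15 (0.581). The same limit holds for Apobr, above background on 2 of 3 arrays at 0 weeks and on 0 at 60 weeks. Nr1h4, which encodes the bile acid receptor, had 12 weeks values that spread as widely as those of Hpgd, with 0.69 ± 2.0 against 0.55 ± 1.82.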

How the data were processed

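RNA of 9 samples of mouse colon organoids was measured on Agilent single-colour arrays. Per the file headers, the authors quantified them with Agilent Feature Extraction 10.7.3.1, and the design of the array names the build mm9:NCBI37:Jul2007. The scanner files as deposited give an intensity per spot, background-subtracted on a linear scale and left unscaled between arrays. The deposited table of values gives a signal for 42530 probes that equals this intensity divided by 1 constant per array, at 0.993 to 0.999 of its 75th percentile, on a linear scale without centring; no step that made it is given in the sources used here, and 1-colour values have no direction. At 60 weeks the medians of its columns were 0.0673, 0.0695 and 0.0582, at 12 weeks 0.0619, 0.0681 and 0.0733, and at 0 weeks 0.0668, 0.0719 and 0.0705.

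Outlier spots (117 to 163 of 59305 per array) were dropped, and none of them was the reason for a missing value of the 9 genes (0 values missing). Repeat spots of 1 probe were averaged, and log2 of the intensity was taken minus the array's 75th percentile. Of the 55681 probes, 27235 had 1 symbol through their RefSeq accession, 0 had several and 28446 had none. Probes well above background on at least 2 of 3 arrays of 1 group were kept, and a gene's brightest probe stands for it. Group means over the 9 arrays were fitted with limma 3.58.1 (lmFit and eBayes, two-sided, Benjamini-Hochberg over 14033 genes) in R 4.3.3, after the code was tested on simulated data. A gene below that call on all 3 arrays of a group has a bound only, "at least N-fold", with that group set to the lowest signal called well above background on each array, or the gene's own where higher. Normexp used the median spot signal, since the files hold no mean. Precision is limited by 3 arrays per group.

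The genes named are the 9, those of the wider pathway list called in at least 1 comparison, and for Ptgs2 and Hpgd the 5 genes most alike. Members, lists and alternatives were chosen with earlier results of these data known. Marker and response lists are described where they are used.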

Additional observations from a re-analysis of the deposited data

How the results depend on the processing

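Of the 27 comparisons of the 9 genes, 16 were called, and 9 of these were called in every alternative run: all 3 of Ptgs2, both rises of Slco2a1, Ptges at 12 against 0 weeks, both calls of Ptges2, and Ptges3 at 60 against 12 weeks. The other 7 ended in at least 1 of up to 24 alternatives. Among all tested genes, 41.8%, 32.8% and 38.3% were called at 12 against 0, 60 against 0 and 60 against 12 weeks. The share of those calls that held in every alternative is not given here, so the 9 have no such measure beside them. With the slide row as a block, 4, 2 and 3 of the 9 genes were called at 12 against 0, 60 against 0 and 60 against 12 weeks, and 8 of the 28 wider genes at 60 against 0 weeks. A fit to only the 2 groups compared called 4 of 9 at 12 against 0 weeks. With the deposited table of values, in which 7 of the 9 genes were tested (not Ptgs2 and Hpgd), 3 were called at 60 against 12 weeks. Array weights called 19 of the 28 wider genes at 60 against 12 weeks. When 1 array at a time was left out, 4 to 7, 2 to 5 and 4 to 6 of the 9 genes and 10 to 17, 11 to 19 and 10 to 19 of the wider genes were called in the same order of comparisons.

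Whether the replicate numbers pair the samples is not settled, and the labels state no pairing. After the group means were taken off, same-numbered arrays of different groups correlated at -0.08 to 0.20. Arrays with different numbers correlated at -0.24 to 0.16. With the replicate number as a block, 6, 3 and 5 of the 9 genes and 14, 14 and 12 of the wider genes were called, and Ptges3 at 12 against 0 weeks (adjusted p = 0.0554) and Ptger4 at 60 against 0 weeks (adjusted p = 0.0540) were lost.

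The changes that turned direction were called neither in the main setting nor in the other. Ptgs1 at 60 against 12 weeks was -0.027 with normexp, -0.040 with the percentile over probes above background on all arrays, -0.11 with quantile normalization, -0.062 with the slide as a block and -0.21 with the row. Pla2g4a in that comparison was -0.016 with that percentile, -0.0029 with quantile normalization and -0.063 with the row. At 60 against 0 weeks Ptges was 0.032 with the mean of its probes and 0.11 with its second probe, and with the row Hpgd was 0.041 and Ptges2 0.0042. Ptger4 at 12 against 0 weeks was 0.042 with the row. With 1 array left out, these changes ranged from -0.18 to 0.35 for Ptgs1, -0.038 to 0.19 for Pla2g4a, -0.13 to 0.047 for Ptges2 and -0.33 to 0.045 for Ptger4 in the same comparisons. The cause was not tested. Signal over background limits Slco2a1, which normexp moved most.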

Other observations

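Genes whose transcripts cyclic AMP is known to raise were looked up beside the receptor Ptger4. Of 11 listed, 9 were tested; 2 were higher and 3 lower at 12 against 0 weeks (median 0.23), 2 higher and 1 lower at 60 against 0 weeks (median 0.29), and 2 higher and 1 lower at 60 against 12 weeks (median 0.24), against 41.8%, 32.8% and 38.3% of all tested genes called. Crem, a cyclic AMP-responsive transcription factor gene, rose by 0.69 ± 0.11 at 12 weeks, though its other probe read 0.34 (adjusted p = 0.110). Areg, a growth factor of the epidermal growth factor family, rose by 0.85 ± 0.16 at 12 weeks (adjusted p = 0.00339). The clock gene Per1 (-0.71 ± 0.18) and the kinase gene Sik1 (-0.53 ± 0.12) fell at 12 weeks, and both were higher again at 60 than at 12 weeks, by 0.91 ± 0.18 and 0.82 ± 0.12. The fall of Per1 was not called with the row as a block or without replicates 1 or 2 of 0 weeks or replicates 1 or 3 of 12 weeks (adjusted p up to 0.0605), and that of Sik1 not with the row as a block (adjusted p = 0.104). Pde4d, a phosphodiesterase gene that breaks cyclic AMP down, was lower at 12 weeks (-0.59 ± 0.13) and at 60 weeks (-0.63 ± 0.13; adjusted p = 0.166 with the row as a block).

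All 6 listed genes of proteins known to bind the Ptgs2 transcript were tested. Zc3h12a, an endonuclease that degrades inflammatory transcripts, rose by 2.73 ± 0.20 at 12 weeks (adjusted p = 2.45e-05) and 2.67 ± 0.20 at 60 weeks (adjusted p = 3.17e-05), from -2.66 ± 0.15 at 0 weeks. Celf2, which can stabilise the transcript, was 0.42 ± 0.12 higher at 12 weeks and lower at 60 weeks than at 0 weeks (-0.76 ± 0.12), and its rise ended without replicates 2 or 3 of 0 weeks or replicates 1 or 3 of 12 weeks (adjusted p up to 0.0897), its fall with the row as a block (adjusted p = 0.193). Tia1 rose by 0.92 ± 0.24 at 12 weeks, a call that its other probe did not give and that ended without replicate 3 of 0 weeks or replicates 1 or 3 of 12 weeks. Elavl1, Zfp36 and Zfp36l1 were not called in any comparison.

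Among the tested genes next to the 9 on the chromosomes, some moved with their neighbour and some did not. Next means in the order of tested genes only, so untested genes may lie between, and distances were not taken. Rgs2, which lies on chromosome 1 with Pla2g4a between it and Ptgs2 in that order, encodes a regulator of G protein signalling. It rose by 3.77 at 12 weeks (adjusted p = 0.000245) and was 0.11 above 0 weeks at 60 weeks (adjusted p = 0.860), where Ptgs2 was 2.16 above. On the other side of Ptgs2, Odr4 fell by 0.54 at 12 weeks (adjusted p = 0.00765). Lcn2, next to Ptges2 on chromosome 2, rose by 5.20 and 4.97 at 12 and 60 weeks. Osmr, the oncostatin M receptor gene, which follows Ptger4 on chromosome 15 with Rictor between them in that order, rose by 5.95 and 4.08.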
